A study of Mus musculus with 10 samples.

Results

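The genes described are those for RNA splicing and RNA-binding proteins: heterogeneous nuclear ribonucleoproteins (hnRNPs), SR proteins, core parts of the spliceosome, DEAD-box helicases, ELAV-like and CELF proteins and numbered RBM proteins. Members were chosen by gene symbol alone, from probe sets that name a single gene, and Snrpn was left out of the choice. This gave 79 genes with 105 probe sets, of 6137 genes with 7542 named probe sets on the arrays. A further 12 probe sets that name several genes include a member's symbol and were not used. Messenger RNA of hypothalamus, liver, white adipose tissue, pancreas and muscle of adult female C57BL/6 mice was read on Affymetrix one-colour arrays, with 1 array per tissue on each of 2 chips, A and B. No treatment or mutant allele is named for any tissue. The adipose arrays bear a title that speaks of a preconfluent state and a source of white adipose tissue, and are called adipose here. Whether an array holds RNA of 1 animal or a pool is not given in the sources used here. Each tissue was read once per chip, so the differences are given without a test and without a spread between animals.

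Splicing removes introns from precursor messenger RNA in a complex of small nuclear ribonucleoproteins, the spliceosome, whose core parts every cell uses. SR proteins mostly favour the use of an exon and hnRNPs often oppose it, and the balance between them differs between tissues. DEAD-box helicases use ATP to remodel RNA and RNA-protein complexes, from splicing to ribosome assembly, translation and decay. CELF and ELAV-like proteins bind messages rich in U or GU, and several of them are best known from neurons, cells in which alternative exons are used widely.

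Intensities were scaled so that the arrays of a chip had the same trimmed mean. A value was read as signal only above the noise bound of its array, the size of the 1st percentile of all values on it. This was done since many deposited values were below 0. On chip A the bound was 258.2 in hypothalamus, 295.3 in liver, 390.1 in adipose, 1166 in pancreas and 1065 in muscle. On chip B it was 649.5 in hypothalamus, 791.9 in liver, 918.3 in adipose, 2608 in pancreas and 1640 in muscle. A message therefore had to be brighter to count as signal in pancreas or muscle than in the other 3 tissues. The tissue labels were checked against defining markers. All 4 measured acinar markers were above noise in pancreas, 5 of 5 skeletal muscle markers in muscle, 6 of 6 liver markers in liver and 6 of 6 adipocyte markers in adipose. In hypothalamus 8 of 9 neuron markers and 5 of 5 glia markers were above noise. Macrophage markers were above noise in adipose for 4 of 4 genes.

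Hypothalamus was the tissue in which most member probe sets with a highest value above noise had that value. The members were above noise there for 64 of 105 probe sets (61.0%), against 39.5% of all named probe sets. In liver 46 of the 105 were above noise (43.8%, against 33.2% of all named probe sets) and in adipose 47 (44.8%, against 32.1%). In pancreas and in muscle 14 each were above noise (13.3%), against 14.6% of all named probe sets in pancreas and 17% in muscle. Of the 79 genes, 55 had a probe set above noise in at least 1 tissue, against 3493 of all 6137 named genes. No tissue gave signal for 34 of the 105 probe sets (32.4%, against 46.5% of all named), and 6 gave signal in all 5 tissues (5.71%, against 7.28%). Fewer cells of a type in a tissue and less RNA of the gene per cell cannot be told apart in such bulk samples.

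The highest value itself was above noise for 64 member probe sets. It lay in hypothalamus for 41 of them (64.1%), against 30.8% of all named probe sets counted in the same way. It lay in adipose for 8 (12.5%, against 16.5%), in pancreas for 7 (10.9%, against 17.7%), in muscle for 7 (10.9%, against 16.7%) and in liver for 1 (1.56%, against 18.2%). The excess over the background was thus in hypothalamus, and in each of the other 4 tissues the share of members was below the background.

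Because the bound was lowest in hypothalamus, the counts were repeated with the highest of the 5 bounds of a chip applied to every tissue. The members were then above it for 27 probe sets in hypothalamus (25.7%, against 13.9% of all named probe sets), 16 in adipose (15.2%, against 13.1%), 14 in liver (13.3%, against 12.5%), 14 in pancreas (13.3%, against 14.6%) and 11 in muscle (10.5%, against 14.1%). Of the 37 members whose highest value passed it, 21 were highest in hypothalamus (56.8%, against 22.1%). A further 7 were highest in pancreas (18.9%, against 26%), 5 in muscle (13.5%, against 21.5%), 4 in adipose (10.8%, against 13.2%) and 0 in liver (against 17.3%). The share highest in hypothalamus was more than 2-fold the background under either bound. Neuron markers summed to 70496 in hypothalamus and lay between -2192 and -334 in the other tissues, with 1 of 9 above noise in each of these. Glia markers summed to 17491 in hypothalamus and to at most 1074 elsewhere. The part of both marker sets in these counts was not tested.

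**Figure D1:**
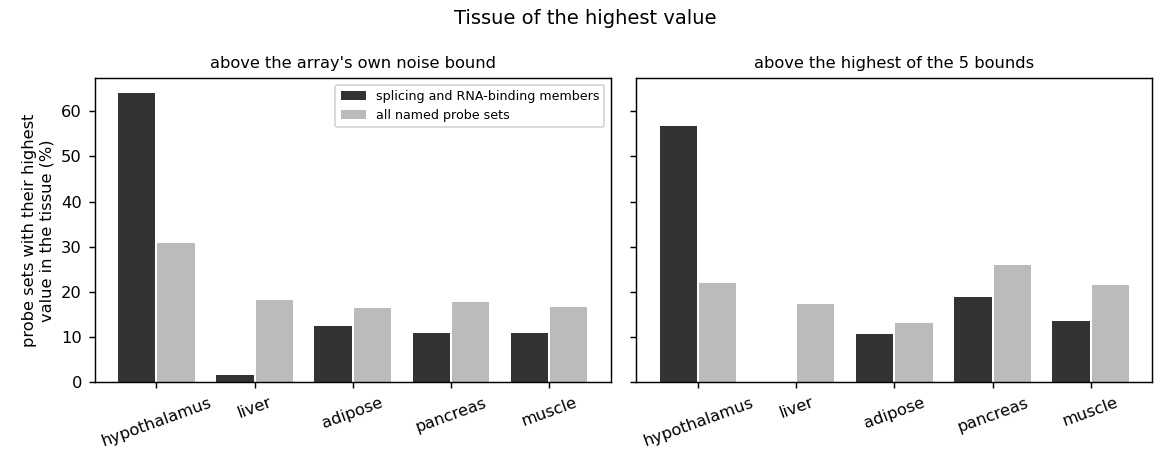
Share of probe sets, in percent on the vertical axis, whose highest value lay in each tissue, for the splicing and RNA-binding members (dark bars) and all named probe sets (light bars). The left panel counts 64 members over the bound of their own array and the right panel 37 members over the highest of the 5 bounds, and in both the dark bar stands above the light one in hypothalamus only (64.1% against 30.8%, and 56.8% against 22.1%).

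The shift of a gene in a tissue was its difference, in log2, from the average of the other 4 tissues, after values under a floor (175 for chip A, 123 for chip B) had been set to it. The median shift over the 79 member genes was 0.49 in hypothalamus, against -0.04 over all named genes. It was 0.00 in adipose (against -0.03), -0.08 in liver (against -0.18), -0.16 in pancreas (against 0.00) and -0.18 in muscle (against 0.00). By family, the median shift in hypothalamus was 1.02 for SR proteins, 0.64 for core spliceosome genes, 0.52 for RBM genes and 0.46 for hnRNPs. For DEAD-box helicases it was 0.15 and for the ELAV-like and CELF genes -0.09. The SR proteins and the core spliceosome had the larger medians and the helicases and ELAV-like and CELF genes the smaller. The SR median was that of Srsf4, at 355 in hypothalamus, and the core spliceosome median that of Snrpc, at 273. Both lay near the bound of 258.2 and were below 0 in the other tissues, so this order rests on floored values. Among probe sets with signal in hypothalamus, liver and adipose the order differed. There the median log2 ratio of hypothalamus over liver was 0.49 for helicases and 0.28 for the core spliceosome. With the noise bound of each array as its floor, the shift in hypothalamus turned. Its median was then -0.62 over the members and -1.08 over all named genes. It was 0.00 over members without relaxed design or with a floor at the 75th percentile.

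A difference from every other tissue was then asked of each member. A call asked for a floored value 4-fold or more above that of any other tissue. It was met in hypothalamus by 1 member probe set (0.952%, against 2.23% of all named probe sets) and in pancreas by 4 (3.81%, against 3.05%). It was met in muscle by 1 (0.952%, against 1.64%), and in liver and adipose by 0, against 2.63% in liver and 1.19% in adipose. The members' share of calls was near or below the background in every tissue. At a 2-fold rule 13 member probe sets were called for hypothalamus (12.4%, against 6.19% of all named probe sets), and 12 of the 13 were above noise there. These 2-fold calls are on floored values: set against the noise bounds of the other tissues, 2 of the 13 were at least 2-fold higher, Hnrnpu and Celf4, and 7 lay under the bound of another tissue.

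**Figure D2:**
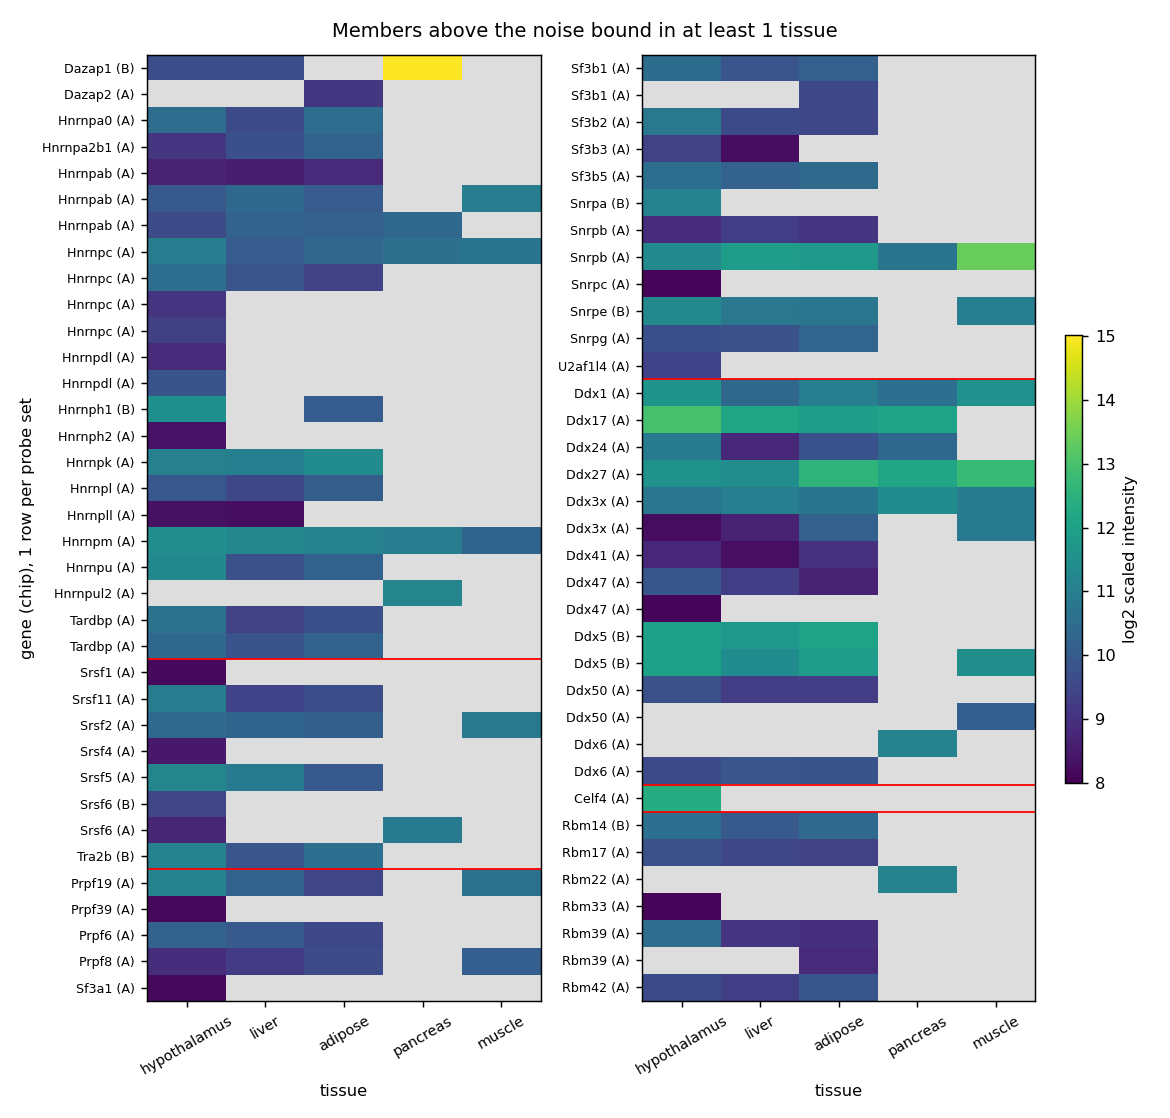
Scaled intensity on a log2 scale (colour) of each member probe set that was above noise in at least 1 tissue, with tissues on the horizontal axis and 1 row per probe set, the chip in brackets, and red lines between families. Grey cells are not above the noise bound of their array. The hypothalamus column is filled for 64 probe sets and the pancreas and muscle columns for 14 each, and Dazap1 in pancreas is the brightest cell.

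Dazap1, an hnRNP-like protein that binds RNA and is known for its partner DAZ in germ cells, had the largest fold of the class. Its 1 probe set, on chip B, read 33059 in pancreas, against 830 in hypothalamus, 822 in liver, 590 in adipose and -179 in muscle. Pancreas was at least 20.2-fold higher than the other tissues, a limit set by the noise bound of muscle. With the arrays scaled by the hybridisation spikes it was at least 5.85-fold. Liver and hypothalamus were also above noise, close to each other and near their bounds. The 4 measured acinar markers, secreted digestive enzymes, summed to 606034 in pancreas and to at most 1480 in any other tissue, with 1 of the 4 above noise in adipose. The part of these markers in the Dazap1 value was not tested. The pancreas value ranked 30 of 6534 on its array. Among named probe sets it lay between those of the ribosomal protein genes Rps12 (42226) and Rps24 (30017). The probe set is of a relaxed design that may also bind related messages, and no second probe set names the gene.

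A second hnRNP, Hnrnpul2, a relative of the nuclear scaffold protein hnRNP U, was called for pancreas from a lower level. It read 2320 in pancreas, against 245 in hypothalamus, 202 in liver, 247 in adipose and 344 in muscle. Only the pancreas value was above noise, at least 2.18-fold over the rest. Its second probe set, built on the same source sequence, read -114 in pancreas, 197 in hypothalamus, 257 in liver, 252 in adipose and 90 in muscle, none above noise. The paired probe sets of Hnrnpul2 thus went different ways in pancreas.

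Rbm22, which joins U6 RNA to the catalytic core of the spliceosome, read 2202 in pancreas, against 180 in hypothalamus, 254 in liver, 339 in adipose and 94 in muscle. Pancreas was at least 2.07-fold higher. Srsf6, an SR protein that binds exonic enhancers, read 1898 in pancreas, against 429 in hypothalamus, 253 in liver, 370 in adipose and 6 in muscle, at least 1.78-fold higher. Hypothalamus was above noise for Srsf6 as well. Its probe set on chip B read 798 in pancreas, 707 in hypothalamus, 406 in liver, 479 in adipose and 715 in muscle, with only hypothalamus above noise. The calls of Hnrnpul2, Rbm22 and Srsf6 were lost when the arrays were scaled by the hybridisation spikes and when the noise bound served as floor, while that of Dazap1 held in both. The Srsf6 call was also lost under 75th percentile scaling.

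**Figure D3:**
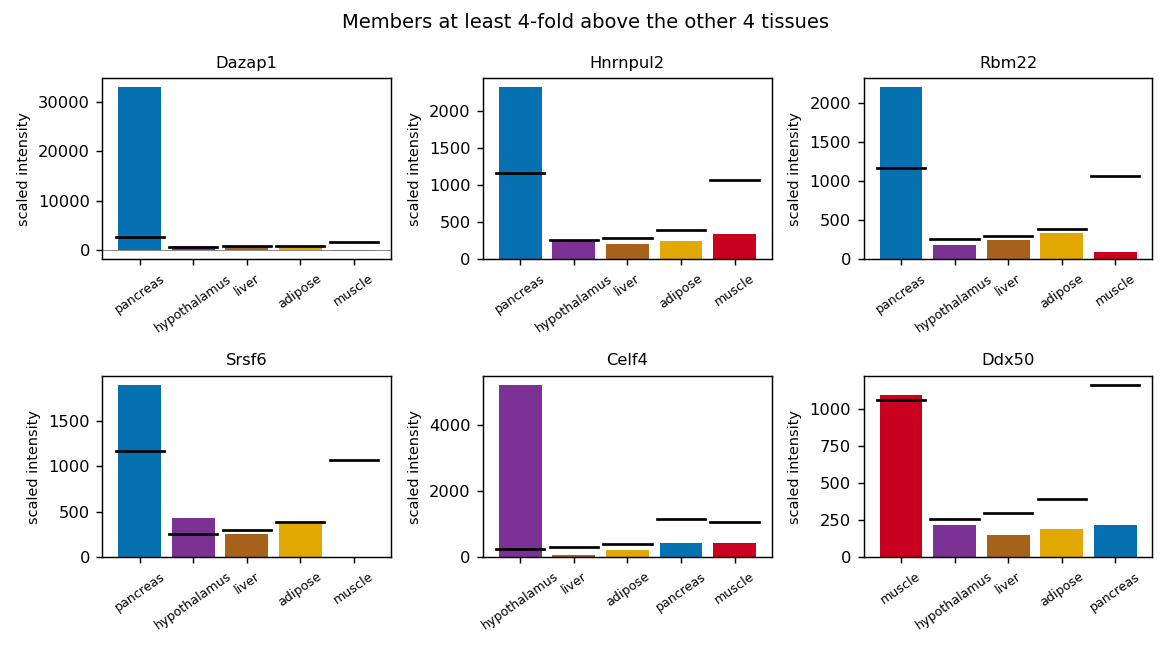
Scaled intensity in each tissue for the 6 probe sets at least 4-fold above the other 4 tissues on floored values, with the called tissue first in each panel and the noise bound of each array as a black line. Dazap1 reads 33059 in pancreas and Celf4 5222 in hypothalamus, far above their bounds, while the Ddx50 value of 1099 in muscle lies just above a bound of 1065.

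The promoters of Dazap1 and Srsf6, called for pancreas, and of Tardbp, highest in hypothalamus, are shown because they can be set beside those of acinar genes. They are the 250 bases before the gene's start in RefSeq (mouse assembly GRCm38.p6), and capitals mark the GC box letters GGGCGG or, on the other strand, CCGCCC.
Dazap1, chr10:80264764-80265013, plus strand: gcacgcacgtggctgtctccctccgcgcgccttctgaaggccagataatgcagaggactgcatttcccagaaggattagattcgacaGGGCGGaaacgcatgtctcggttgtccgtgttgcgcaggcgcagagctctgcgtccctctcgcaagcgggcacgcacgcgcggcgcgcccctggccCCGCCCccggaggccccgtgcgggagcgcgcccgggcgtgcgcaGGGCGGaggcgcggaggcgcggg
Srsf6, chr2:162931258-162931507, plus strand: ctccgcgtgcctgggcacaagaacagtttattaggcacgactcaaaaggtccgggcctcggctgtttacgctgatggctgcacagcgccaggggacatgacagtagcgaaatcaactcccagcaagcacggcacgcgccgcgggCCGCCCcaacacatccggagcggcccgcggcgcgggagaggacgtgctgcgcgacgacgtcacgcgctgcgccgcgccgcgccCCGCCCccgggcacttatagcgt
Tardbp, chr4:148626997-148627246, minus strand: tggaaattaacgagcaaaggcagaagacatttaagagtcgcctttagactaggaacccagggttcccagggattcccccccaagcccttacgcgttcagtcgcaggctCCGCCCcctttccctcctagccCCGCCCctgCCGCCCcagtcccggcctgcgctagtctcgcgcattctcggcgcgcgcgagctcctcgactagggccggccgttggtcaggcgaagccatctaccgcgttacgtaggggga
The Dazap1 window held 35 CpG dinucleotides and 3 GC boxes, that of Srsf6 35 and 2, and that of Tardbp 24 and 3. The table gave a promoter for 70 of the 79 members, with a median of 19 CpG, against a median of 14 over 4891 matched genes of the chips and 2 over 7 acinar marker genes. A GC box was present in 60% of members, against 54.6% of matched genes of the chips, 32.9% of all 27025 genes in the table and 0 of the 7 acinar genes. The TATA box letters TATAAA, on either strand, were present in 10% of members, against 9.41% of the chips' genes and 57.1% of the acinar genes. Dazap1 and Srsf6 thus had more CpG than the median member, and the acinar genes had a lower median. Hnrnpul2 and Rbm22, also called for pancreas, are not among the matched members. The ETS letters CCGGAAG were present in 22.9% of members, against 12.1% of the chips' genes and 7.05% of all genes. The cyclic AMP element TGACGTCA was present in 4.29% of members, against 2.39% and 1.62%. Each motif was searched on both strands, and a match is a description of letters only.

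The hnRNPs coat nascent transcripts, and their family was formed here by symbol, from the Hnrnp, Ptbp, Dazap and Tardbp genes. It counts Dazap2 by its symbol only, which was above noise in adipose alone, at 563. Of the family's 28 probe sets 21 were above noise in hypothalamus, 15 in liver, 15 in adipose, 5 in pancreas and 3 in muscle. Of 23 whose highest value was above noise, 14 were highest in hypothalamus, 5 in adipose, 3 in pancreas, 1 in muscle and 0 in liver. Tardbp, the gene for TDP-43, which binds UG repeats and keeps cryptic exons out of messages, had a pair of probe sets on chip A. The brighter in hypothalamus read 1589 there, against 659 in liver, 836 in adipose, 589 in pancreas and -25 in muscle, at least 1.36-fold over the rest. The other read 1335 in hypothalamus, against 893 in liver, 1195 in adipose, 963 in pancreas and 871 in muscle, 1.12-fold over adipose. Both were highest in hypothalamus and above noise in hypothalamus, liver and adipose, but they differed in how far hypothalamus stood above the rest.

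Hnrnph1, which binds runs of G, read 2935 in hypothalamus, against 423 in liver, 1063 in adipose, 308 in pancreas and 308 in muscle, at least 1.13-fold over the rest because the pancreas bound on chip B is high. Hnrnpu, the nuclear scaffold protein, read 2490 in hypothalamus, against 848 in liver, 1169 in adipose, 346 in pancreas and 459 in muscle, 2.13-fold over adipose. Neither was above noise in pancreas or muscle. Hnrnpm, which binds GU-rich sites, was above noise in every tissue, with 2750 in hypothalamus, against 2442 in liver, 2183 in adipose, 2025 in pancreas and 1230 in muscle. Hnrnpk, which binds runs of C, was highest in adipose, with 2656, against 2136 in hypothalamus, 2087 in liver, 766 in pancreas and 881 in muscle. Hnrnpm and Hnrnpk differed by little between hypothalamus and its next tissue, with 1.13-fold over liver for Hnrnpm and adipose 1.24-fold over hypothalamus for Hnrnpk, and under 75th percentile scaling liver was highest for Hnrnpm.

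Hnrnpc, which binds runs of U, had 4 probe sets, all highest in hypothalamus and above noise there. The brightest read 1998 in hypothalamus, against 1031 in liver, 1265 in adipose, 1528 in pancreas and 1686 in muscle, 1.19-fold over muscle and above noise in every tissue. Another read 1491 in hypothalamus, against 918 in liver, 650 in adipose, 129 in pancreas and 289 in muscle. The last pair read 534 and 641 in hypothalamus and were above noise nowhere else, both under the pancreas bound. Both probe sets of Hnrnpdl, a relative of hnRNP D, were above noise in hypothalamus alone, at 906 and 469, under the pancreas and muscle bounds. Ptbp1 and its neuronal relative Ptbp2, which repress exons next to runs of pyrimidines, had no value above noise in any tissue, and Ptbp2 read 39 in hypothalamus.

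The SR proteins had 13 probe sets, of which 8 were above noise in hypothalamus, 4 in liver, 4 in adipose, 1 in pancreas and 1 in muscle. Of 7 with a highest value above noise, 5 were highest in hypothalamus. Srsf5 read 2363 in hypothalamus, against 1921 in liver, 991 in adipose, 964 in pancreas and 98 in muscle, 1.23-fold over liver. Tra2b, which binds GA-rich enhancers, read 2210 in hypothalamus, against 916 in liver, 1497 in adipose, 921 in pancreas and 660 in muscle. No fold over all tissues could be given for Tra2b, since the pancreas bound on its chip exceeded its value. Srsf11, known for its part in the inclusion of neuronal microexons, read 1998 in hypothalamus, against 680 in liver, 820 in adipose, 680 in pancreas and 381 in muscle, at least 1.71-fold higher. Srsf2 was the exception with muscle on top, at 1827, against 1353 in hypothalamus, 1232 in liver, 1111 in adipose and 560 in pancreas, 1.35-fold over hypothalamus.

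In the core spliceosome 16 of 24 probe sets were above noise in hypothalamus, 11 in liver, 11 in adipose, 4 in muscle and 1 in pancreas, and 11 of 14 with a highest value above noise were highest in hypothalamus. Snrpb, whose product is part of the Sm ring around spliceosomal RNAs, went the other way. Its brighter probe set read 10721 in muscle, against 2612 in hypothalamus, 3783 in liver, 3468 in adipose and 1662 in pancreas, all above noise, 2.83-fold over liver. Its other probe set read 742 in muscle, not above noise, against 475 in hypothalamus, 618 in liver, 531 in adipose and -27 in pancreas. The second probe set thus gave no signal in muscle to set beside the first. Snrpe, of the same ring, read 2539 in hypothalamus, against 1749 in liver, 1732 in adipose, 1579 in pancreas and 2035 in muscle, with pancreas below its bound.

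Snrpa, the U1 protein that binds the stem loop of U1 RNA, read 2187 in hypothalamus, against 538 in liver, 843 in adipose, 1181 in pancreas and 729 in muscle, and only hypothalamus was above noise. Prpf19, a ubiquitin ligase of the active spliceosome, read 2260 in hypothalamus, against 1154 in liver, 712 in adipose, 436 in pancreas and 1586 in muscle, 1.42-fold over muscle. Sf3b2, of the complex that holds the branch point, read 1809 in hypothalamus, against 766 in liver, 714 in adipose, 596 in pancreas and 170 in muscle, at least 1.55-fold higher. For Snrpa the pancreas bound exceeded the hypothalamus value, so these tissues could not be ordered, while Prpf19 and Sf3b2 were higher in hypothalamus than any other value or bound. Sf3b1, of the same complex, had a probe set at 1415 in hypothalamus, against 918 in liver, 1141 in adipose, 564 in pancreas and 778 in muscle. Its second probe set was above noise in adipose alone, at 741, against 26 in hypothalamus, 10 in liver, -235 in pancreas and 1005 in muscle, where the bound is higher. This second probe set was called for adipose when the muscle arrays were left out.

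The DEAD-box helicases were spread more evenly. Of 21 probe sets 13 were above noise in hypothalamus, 12 in liver, 12 in adipose, 6 in pancreas and 6 in muscle. Of 13 with a highest value above noise, 6 were highest in hypothalamus, 3 in muscle, 2 in pancreas, 1 in liver and 1 in adipose. Ddx17, a splicing helicase and coactivator of transcription, read 8089 in hypothalamus, against 4454 in liver, 3848 in adipose, 4279 in pancreas and 891 in muscle, 1.82-fold over liver. Ddx5, its close relative, read 4161 in hypothalamus, 3397 in liver, 4212 in adipose, 1412 in pancreas and 1316 in muscle by one probe set. By the other it read 4096 in hypothalamus, 2734 in liver, 3678 in adipose, 428 in pancreas and 2820 in muscle. The probe sets of Ddx5 put adipose 1.01-fold over hypothalamus and hypothalamus 1.11-fold over adipose, so the order of these tissues was not settled.

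Ddx27, Ddx1 and 1 probe set of Ddx3x gave signal in every tissue. Ddx27, which acts in ribosome assembly, read 6816 in muscle, against 3092 in hypothalamus, 2752 in liver, 6063 in adipose and 4488 in pancreas. Ddx1, part of a transfer RNA ligase complex, read 3192 in hypothalamus, against 1291 in liver, 2043 in adipose, 1515 in pancreas and 2993 in muscle. The range from lowest to highest tissue was 2.48-fold for Ddx27 and 2.47-fold for Ddx1, and the top pair of tissues lay within 1.12-fold for Ddx27 and 1.07-fold for Ddx1. For Ddx27 adipose came first under 75th percentile and spike scaling. Ddx3x, a helicase of translation initiation, read 2719 in pancreas by one probe set, against 1740 in hypothalamus, 2058 in liver, 1705 in adipose and 1870 in muscle, 1.32-fold over liver. By the other it read 1882 in muscle, against 299 in hypothalamus, 415 in liver, 1130 in adipose and 901 in pancreas. The probe sets put different tissues first, and for the one highest in pancreas the top tissue was liver under 75th percentile scaling and hypothalamus under spike scaling.

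Ddx6, a helicase of message decapping and P bodies, read 2200 in pancreas by one probe set, against 142 in hypothalamus, 157 in liver, 223 in adipose and 634 in muscle, at least 2.06-fold higher, but under spike scaling muscle was highest, 1.36-fold. By the other it read 922 in liver, against 765 in hypothalamus, 911 in adipose, 842 in pancreas and 515 in muscle. Each probe set gave signal where the other gave none. Ddx50, a nucleolar helicase, was the muscle call, with 1099 in muscle, against 216 in hypothalamus, 148 in liver, 188 in adipose and 218 in pancreas. The pancreas bound exceeded that value, so no fold was given, and the second probe set of Ddx50 read 853 in hypothalamus, 622 in liver, 616 in adipose, 997 in pancreas and 502 in muscle.

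**Figure D4:**
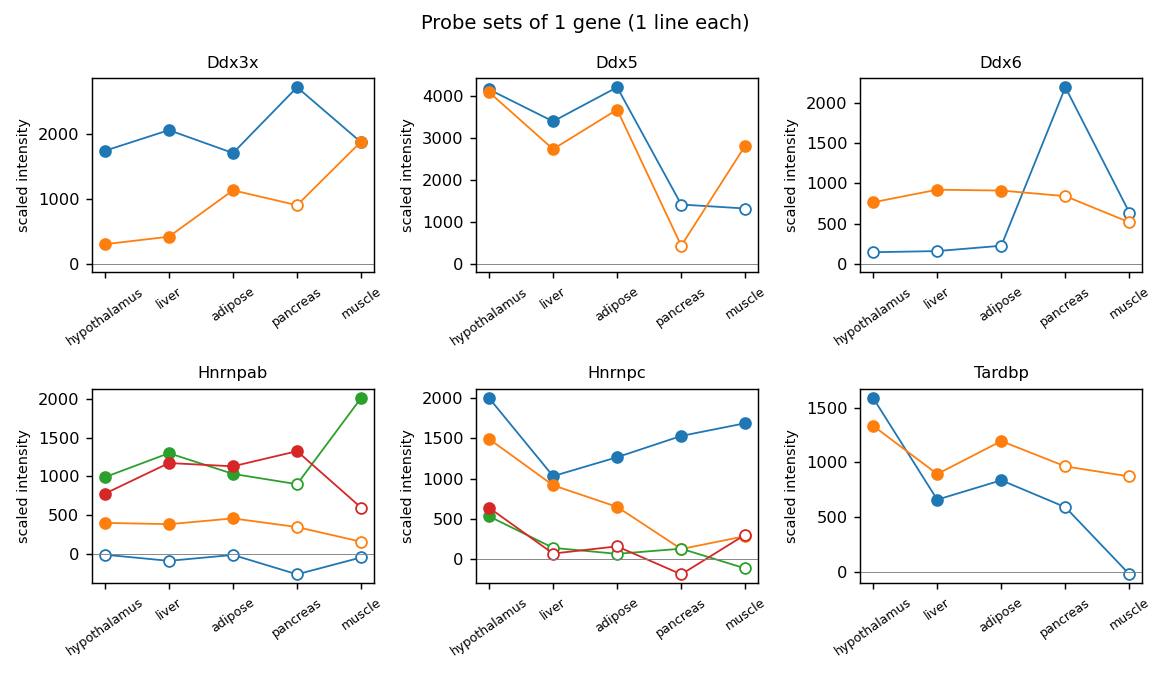
Scaled intensity by tissue of every probe set of 6 member genes, 1 line per probe set, with filled points above and open points not above the noise bound of their array. Hnrnpc and Tardbp are highest in hypothalamus by all of their probe sets, while those of Ddx3x, Ddx5, Ddx6 and Hnrnpab are highest in different tissues.

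In all, 18 member genes had several probe sets, 44 together. For 8 genes at least 2 of them had their highest value above noise, and these were highest in the same tissue for 4 genes (Ddx47, Hnrnpc, Hnrnpdl and Tardbp, all in hypothalamus) and in different tissues for the other 4. The hypothalamus values of Ddx47 (936 and 278) and Hnrnpdl (906 and 469) lay under the pancreas and muscle bounds. Their order against these 2 tissues was therefore not settled. Hnrnpab, an hnRNP of the A/B type, was among the other 4. One probe set read 2008 in muscle, against 991 in hypothalamus and 1299 in liver, and another read 1325 in pancreas, against 779 in hypothalamus and 1172 in liver. This second one had another top tissue under 3 scalings, liver or adipose. Probe sets of a gene are repeat readings of the same sample and are not replicates. Some pairs, as that of Ddx47, are built on the same source sequence. What sets the probe sets of a gene apart was not tested.

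Celf4, a CELF protein that binds messages of excitatory neurons, was the member called for hypothalamus. It read 5222 in hypothalamus, against 77 in liver, 211 in adipose, 420 in pancreas and 440 in muscle. Only hypothalamus was above noise, at least 4.48-fold over the rest. The other CELF and ELAV-like genes (Celf1 and Elavl1 to Elavl4) had no value above noise in any tissue, although Elavl2, Elavl3 and Elavl4 are neuronal proteins and 8 of 9 neuron markers were above noise in hypothalamus. Elavl2 read 99, Elavl3 66 and Elavl4 21 in hypothalamus, under a bound of 258.2. At this bound a lower level could not be detected.

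The RBM genes had 12 probe sets, of which 5 were above noise in hypothalamus, 5 in adipose, 4 in liver, 1 in pancreas and 0 in muscle. Rbm39, a splicing factor related to U2AF, read 1458 in hypothalamus, against 537 in liver, 490 in adipose, 337 in pancreas and 201 in muscle, at least 1.25-fold higher. A second probe set of Rbm39 was above noise in adipose alone, at 456. Rbm14, a coactivator found in paraspeckles, read 1509 in hypothalamus, against 996 in liver, 1352 in adipose, 864 in pancreas and 1053 in muscle. Rbm42, which binds RNA and associates with the tri-snRNP, read 944 in adipose, against 762 in hypothalamus, 629 in liver, -109 in pancreas and 701 in muscle. Beside Rbm22, no RBM gene had signal in pancreas.

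Hypothalamus, liver and adipose had the lowest bounds and could be compared more directly. Of the members 43 probe sets were above noise in all 3, and 1638 named probe sets. The median log2 ratio of hypothalamus over liver was 0.38 for the members, against 0.19 for all named, and the ratio was above 0 for 33 of 43 (76.7%, against 57.7%). Hypothalamus was at least 2-fold over liver for 8 members (18.6%, against 20.9%). It was at least 2-fold under liver for 0 of the 43, against 240 of the 1638 named. For hypothalamus over adipose the median was 0.16, against -0.03 for all named, with 27 of 43 above 0 (62.8%, against 49%) and 10 at least 2-fold higher (23.3%, against 13.9%). At least 2-fold under adipose were 2 members, against 271 of the 1638 named. Over liver the members thus differed from all named in having many small ratios above 0 and none 2-fold or more below. The members' median exceeded that of all named by 0.04 to 0.23 over liver and by 0.11 to 0.30 over adipose across 5 scalings. The 43 need signal in all 3 tissues, so genes seen in hypothalamus alone are not among them.

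**Figure D5:**
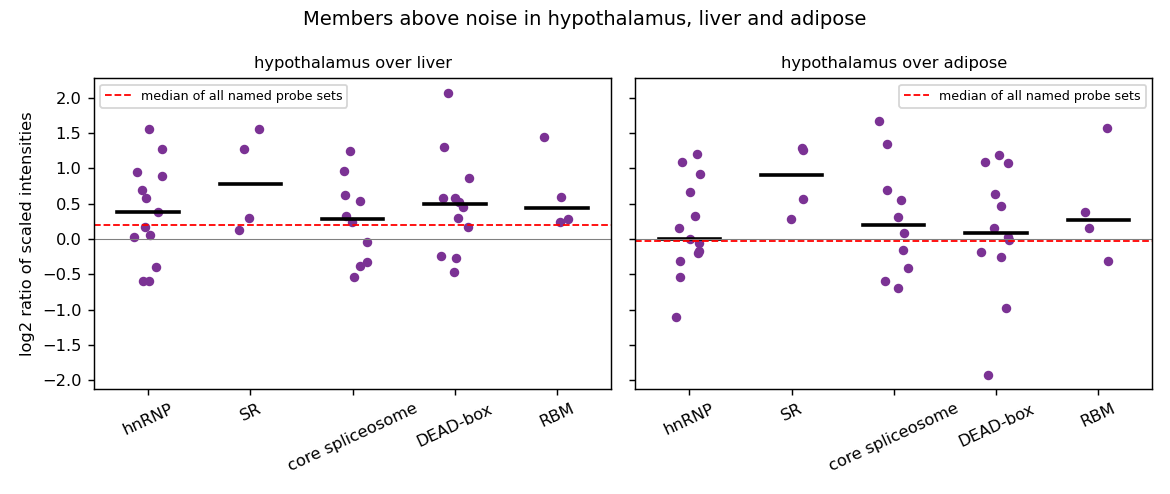
Log2 ratio of scaled intensities of hypothalamus over liver (left) and over adipose (right) for the 43 member probe sets above noise in all 3 tissues, by family, with the family median as a black bar and the median of 1638 named probe sets as a dashed line. The 4 SR probe sets are all above 0 in both panels, with medians of 0.79 over liver and 0.91 over adipose, and the 13 hnRNP probe sets over adipose have a median of 0.00.

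Within these 43, the family medians of hypothalamus over liver were 0.79 for 4 SR probe sets, 0.49 for 12 of DEAD-box helicases, 0.44 for 4 of RBM genes, 0.38 for 13 of hnRNPs and 0.28 for 10 of the core spliceosome. Over adipose they were 0.91 for SR proteins, 0.27 for RBM genes, 0.20 for the core spliceosome, 0.09 for helicases and 0.00 for hnRNPs. SR proteins came first in both. The 6 probe sets above noise in all 5 tissues, of Ddx1, Ddx27, Ddx3x, Hnrnpc, Hnrnpm and Snrpb, had a median shift of 0.14 in hypothalamus, against -0.29 over 549 such named probe sets, 0.46 in muscle (against 0.43) and 0.01 in pancreas (against 0.44).

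A separate list of RNA-processing genes outside the symbol rule had 67 of its 124 genes measured, by 93 probe sets. Above noise in hypothalamus were 47 of them (50.5%, against 39.5% of all named probe sets), and 20 of 45 with a highest value above noise were highest there (44.4%, against 30.8%). Their median shift in hypothalamus was 0.00, against 0.49 for the splicing and RNA-binding members. Adarb1, an enzyme that edits A to I in neuronal messages, read 1692 in hypothalamus, against at most 245 elsewhere. Cstf2, of the polyadenylation machinery, read 1733 in hypothalamus, against at most 408 elsewhere. Both were called for hypothalamus, but set against the pancreas bound they were at least 1.45-fold (Adarb1) and 1.49-fold (Cstf2) higher. Of the 93 probe sets of the list 4 were called for hypothalamus, against 2.23% of all named probe sets. Fxr1, a relative of the fragile X protein with a known role in muscle, read 8226 in muscle, against 1376 in hypothalamus, 1000 in liver, 1624 in adipose and 496 in pancreas, at least 3.15-fold higher. Pabpc1, the cytoplasmic poly(A)-binding protein, read 11937 in adipose, against 1726 in hypothalamus, 5679 in liver, 2498 in pancreas and 3462 in muscle, 2.10-fold over liver. Nxf1, the main export receptor for messages, read 1928 in pancreas by one probe set, against at most 508 elsewhere and at least 1.81-fold higher, while another was called for hypothalamus at 1481. Puf60, which helps U2AF at the 3' splice site, read 1952 in hypothalamus by one probe set, against at most 628 elsewhere, at least 1.67-fold higher. Its pair on the same source sequence read -84 in hypothalamus, and the probe set on chip B read 550 there. Neither of these gave signal in any tissue. These genes had their highest values in different tissues.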

How the data were processed

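Biotin-labelled cRNA from Trizol-extracted total RNA was hybridised to Affymetrix arrays, per the labels' protocols. The deposited values are linear intensities. Between 17.0% and 39.0% of those of an array are below 0, so the authors had subtracted a signal, and the software is not given in the sources used here. Gene names came from the platform annotation, and all 105 member probe sets had the same symbol in the RefSeq table of GRCm38.p6. Of 13057 probe sets that were not controls, 7542 had 1 gene, and 224 with several and 5291 with none were not named.

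Arrays of a chip were brought to the same mean, taken after trimming 2% at each end. The floor was the median of the array medians (175 and 123). A fold is taken over the largest value or noise bound of the other tissues, "at least" where a bound sets it, and not given under 1. A gene's shift used its probe set of highest mean rank. Relaxed design, read from the probe set's suffix, held 74.3% of members and 74.0% of named probe sets. Counts are descriptions with no test. Only the calls were checked on simulated data, with rises planted in liver alone, and the other counts were not. Python 3.11.15, numpy 2.4.6 and pandas 2.3.3 were used. The precision is limited by the number of arrays.

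The members, lists and rules were chosen with earlier results of these data known. The genes named were Dazap1 and Tardbp, called members above noise, the 4 with the largest value per family, those above noise in every tissue, those with probe sets highest in different tissues and some of the outside list. Others were named after their values were seen. Alternatives were other scalings, floors, bounds and folds, no relaxed design, and leaving out the pancreas or muscle arrays.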

Additional observations from a re-analysis of the deposited data

How the results depend on the processing

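Hypothalamus had the most members above noise and the most highest values under each alternative run for these counts. No paired analysis was possible because each tissue has 1 array per chip. With the highest bound for every tissue, chosen after seeing the data, members above noise were 27 in hypothalamus, 14 in liver and 16 in adipose, and highest were 21 in hypothalamus, 0 in liver and 4 in adipose. Leaving out relaxed design took away 78 of 105 member and 5583 of 7542 named probe sets. Above noise were then 10 members in hypothalamus (of all named, 539), 7 in liver (417), 8 in adipose (364), 1 in pancreas (201) and 1 in muscle (215). Highest were 7 in hypothalamus (of all named, 197), 0 in liver (89), 3 in adipose (82), 1 in pancreas (145) and 1 in muscle (111). For pancreas 1 member was called, Hnrnpul2, and 84 of all named. Bounds at the 2.5th percentile gave 23 above noise in pancreas and 26 in muscle, at the 0.5th 9 in pancreas, and quantile normalization 25 in pancreas and 24 in muscle. Calls at 2-fold were 13 in hypothalamus (of all 7542 named, 467), 1 in adipose (243), 3 in muscle (542) and 5 in pancreas (684). With 8-fold calls, a floor at the 75th percentile or the noise bound as floor, 1 was called for pancreas, Dazap1, and 0 for muscle. Of all named, 83, 101 and 61 were called for pancreas in these settings, and 58, 73 and 58 for muscle. Spike scaling also left 1 call for pancreas (of all named, 39), and 3 highest there (of all named, 100). Without the muscle arrays 1 was called for adipose (of all named, 135), 13 were highest in adipose (778) and 4 in liver (748). Without the pancreas arrays 3 were highest in liver (776). Highest in liver were 8 under 75th percentile scaling, 4 under quantile normalization and 0 under spike scaling. With the noise bound as floor the median shifts were -0.62 in hypothalamus (all named -1.08), -0.85 in liver (-1.01), 0.64 in muscle (0.90) and 1.12 in pancreas (1.45). Spike scaling gave -1.38 in pancreas (-0.57) and, over the 6 probe sets above noise everywhere, 0.68 in adipose, 1.05 in hypothalamus and -2.27 in pancreas, and quantile normalization -0.26 in muscle. The cause of these moves was not tested beyond what each setting does by construction. Of the folds of named members, 83 values stayed and 25 moved, among them Celf4 to 9.65-fold under quantile normalization. The highest tissue turned for single probe sets of 7 genes. Under spike scaling it became adipose for Ddx27 and Hnrnpab, hypothalamus for Ddx3x, Ddx5 and Srsf6, and muscle for Ddx6. Under 75th percentile scaling it became adipose for Ddx27, liver for Ddx3x, Hnrnpab and Hnrnpm, and hypothalamus for Ddx5, and under quantile normalization liver for Hnrnpab. High bounds in pancreas and muscle limit what those arrays can show.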
